A study of Canis lupus familiaris with 14 samples.

Results

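Dog chromosome 13 was followed through its genes with at least 2 exon intervals, counted after overlapping intervals of the annotation had been merged. There are 553 such genes among the 30951 genes of the count table, lying between positions 41121 and 63189835 of CanFam3.1, and the other 126 genes of the chromosome have 1 exon interval and were left out. Blood RNA was sequenced from 14 dogs: 7 had lymphoma, which is a cancer of lymphocytes, and 7 served as controls, labelled non-lymphoma, whose disease is described only as not being lymphoma. The labels give no age, sex, breed, lymphoma type, treatment or control diagnosis. Nothing in the labels says how much of each blood sample was tumour. Each library is described as its own sample, so p-values reflect how much the libraries vary, and part of that may be technical. The count table pairs no gene with a name, so genes are given by position in CanFam3.1, and the blood label could not be checked against marker genes.

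As background, gain of chromosome 13 is among the recurrent chromosome changes of canine lymphoma, together with gain of chromosome 31. A gained chromosome adds copies of every gene it carries, and where RNA follows copy number the genes of the whole chromosome shift by a like amount, so a gain is looked for as a chromosome-wide level and not as a list of single genes. The chromosome carries MYC, near 25 Mb, a transcription factor that drives cell growth and division, and KIT, near 47 Mb, the receptor tyrosine kinase for stem cell factor on blood progenitors and mast cells. With 3 copies in place of 2 in every cell, and RNA in proportion, the log2 level would be 0.58 higher. In bulk blood a shift also depends on how many cells carry the gain, and a change in cell numbers cannot be told apart from a change in RNA per cell.

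Total counts ranged from 9845059 to 14831589 in lymphoma and from 13522628 to 21610927 in non-lymphoma libraries. Of the 553 genes, 247 to 319 had a count in each lymphoma library and 283 to 446 in each non-lymphoma library, and 19 had no count in any library. The filter on low counts kept 223 of the 553 genes, and only these were tested. The 330 genes left out had at most 60 counts in any library, with a median total of 7 counts over all 14. Of the tested genes, 45 share exonic sequence with another annotated gene, which makes their counts uncertain because strand was not used in counting.

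Of the 223 tested genes 41 were called, against 16.6% of all genes tested. On chromosome 13, 34 of these 223 tested genes were higher and 7 were lower in lymphoma blood by edgeR's quasi-likelihood test with adjusted p-values under 0.05. Over all 12836 tested genes 9.21% were called higher and 7.4% lower, whereas the chromosome 13 shares were 15.2% and 3.14%. The median log2 fold change was 0.15 on chromosome 13, against -0.05 over all tested genes and -0.05 over the 11328 tested multi-exon genes of the other numbered chromosomes. The quartiles of the chromosome 13 values were -0.27 and 0.65. Called genes moved about 2-fold, with a median fold of 2.08 among those higher and 1.92 among those lower, and 18 higher and 2 lower genes passed a log2 fold change of 1 in size. Chromosome 31 had 8 of 108 tested multi-exon genes called higher and 18 lower, with a median of -0.01. No p is given for the chromosome as a whole.

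The counts moved with single libraries. Without lymphoma replicate 1, 24 genes were called higher and 12 lower, with 8.02% and 6.14% of all tested genes called, and the median log2 fold change on chromosome 13 was 0.04. Of the 34 higher calls, 24 remained without that library, and 5 of the 7 lower calls remained. Among the 34 higher genes, 21 had their highest level in lymphoma replicate 1. That library was part of the fit that called them, so the count is a description only. The matching share among higher genes of other chromosomes is not given. The higher calls fell about as much without several other libraries, to 22 without non-lymphoma replicate 7, 25 without replicate 6, 26 without replicate 5 and 27 without replicate 2 of that group. They were 26 without lymphoma replicate 2 and 27 without lymphoma replicate 5 or 7. The median log2 fold change was at least 0.15 in each of these, against 0.04 without lymphoma replicate 1. Leaving out lymphoma replicate 4 left 4 lower calls, as did leaving out non-lymphoma replicate 6, and replicate 5 of either group, when left out, left 3. After all libraries had been thinned to the smallest total, 34 genes were called higher and 6 lower. For thinning, and for leaving out any library but lymphoma replicate 1, the share of all tested genes called is not given. Within the libraries with 5-digit sample numbers, 2 lymphoma and 7 non-lymphoma, edgeR called 0 of the 239 tested genes of the chromosome in either direction. In those libraries 0.713% of all 14580 tested genes were called, so that the 0 calls on chromosome 13 are near the background.

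**Figure D1:**
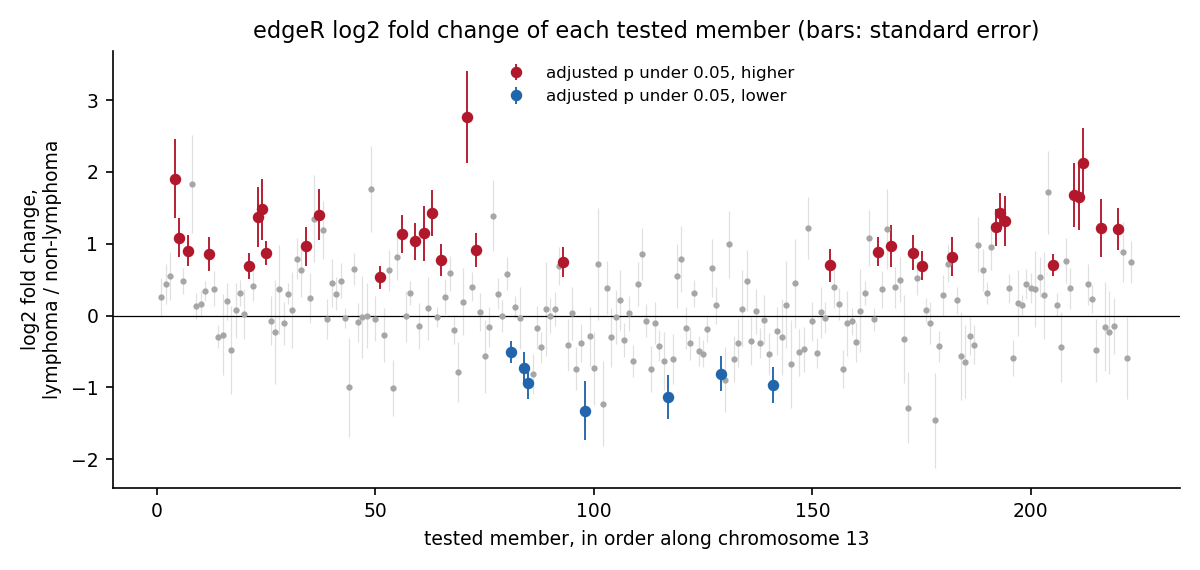
Log2 fold change between lymphoma and non-lymphoma blood (y axis) of the 223 tested genes in order along chromosome 13 (x axis), with standard errors as bars. The 7 genes called lower sit in 2 stretches of the middle, at 29 and 36 to 38 Mb, while only 2 of the 34 called higher lie between 35 and 40 Mb. That part from 35 to 40 Mb holds 73 of the 223 tested genes.

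The level of chromosome 13 was then taken library by library. For each tested gene the difference of log2 CPM (CPM, a library-size-scaled count with TMM factors) from the non-lymphoma mean was computed, and the median over chromosome 13 minus the median over the tested multi-exon genes of the other 37 numbered chromosomes is called the level. A non-lymphoma library was compared with the mean of the other non-lymphoma libraries. Lymphoma replicate 1 had a level of 0.79, or 1.73-fold. The other 6 lymphoma libraries had 0.18, 0.15, 0.12, 0.21, -0.02 and 0.18 for replicates 2 to 7. The non-lymphoma levels were 0.10, 0.03, 0.04, -0.04, -0.04, 0.01 and -0.11. The lymphoma mean was 0.23 ± 0.26 (SD, n = 7), and 0.14 ± 0.084 (SD, n = 6) without replicate 1. The control mean was 0.00036 ± 0.068 (SD, n = 7). Replicate 1 thus lay far above every other library, and 5 of the other 6 lymphoma libraries lay above the highest non-lymphoma level by small margins. The groups overlapped through lymphoma replicate 6.

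Against the other chromosomes of the same library, only that 1 lymphoma library had chromosome 13 at the top. Chromosome 13 ranked first of 38 in lymphoma replicate 1, where the next was chromosome 19 with 0.29 and the lowest chromosome 38 with -0.36. In lymphoma replicates 2 to 7 it ranked 18, 8, 10, 10, 28 and 11. Its rank in the non-lymphoma libraries ran from 2 in replicate 1, at a level of only 0.10, to 32 in replicate 4. Several lymphoma libraries had other chromosomes well above it, such as chromosome 29 with 0.63 in replicate 2 and 0.63 in replicate 5. In the mean difference between groups chromosome 13 ranked 6 of 38, with 0.23, and it ranked 11 with 0.14 when replicate 1 was left out. Within the 5-digit libraries, which do not include that replicate, the mean difference was 0.09. Chromosome 31 had a level of -0.12 in lymphoma replicate 1 and a mean difference of -0.08 between groups.

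**Figure D2:**
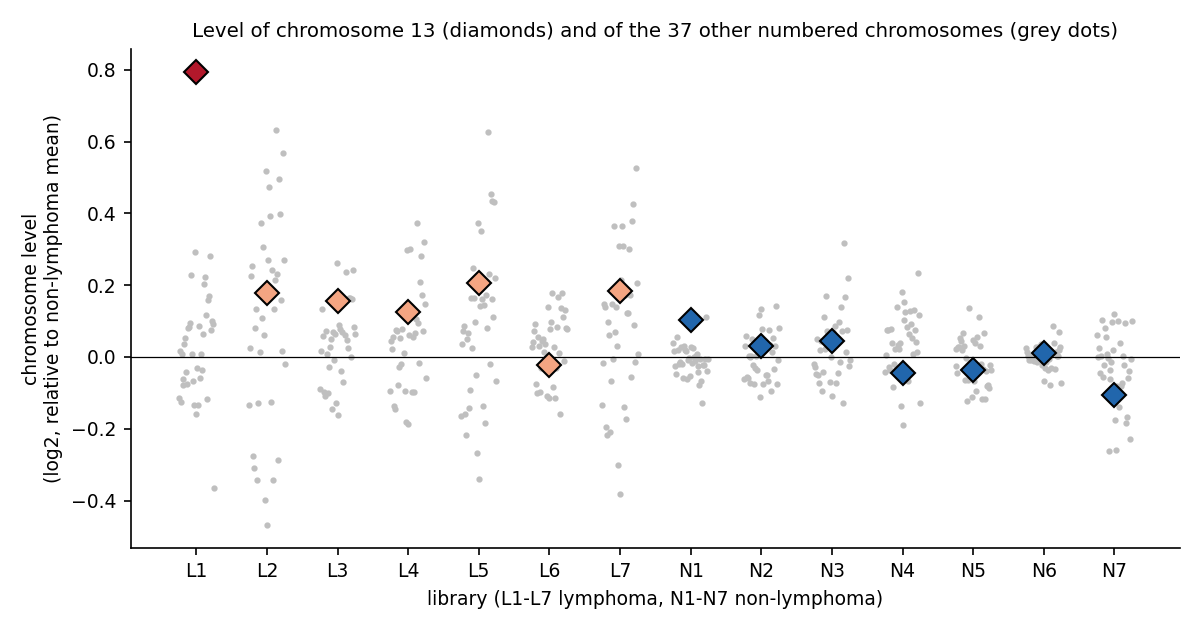
Level of chromosome 13 (diamonds) and of the 37 other numbered chromosomes (grey dots) in each library, as the median log2 difference from the non-lymphoma mean relative to all other chromosomes (y axis). Lymphoma replicate 1 sits at 0.79, above all 37 other chromosomes of that library, while the remaining diamonds lie between -0.11 and 0.21.

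The shift in lymphoma replicate 1 was spread over many genes. In that library 73.1% of the tested chromosome 13 genes were above their non-lymphoma mean, compared with 49.4% of tested multi-exon genes elsewhere. It had the highest level of all 14 libraries in 101 of the 223 genes, or 45.3%, where its share elsewhere was 13.5%. The next lymphoma library, replicate 2, was highest in 24 genes, or 10.8%, against 12.7% elsewhere. The quartiles of the gene differences in replicate 1 were -0.11 and 1.42, so the shift was not even from gene to gene. Taken over the genes with an average log2 CPM of at least 3 the level was 0.73, over genes that share no exonic sequence with another gene it was 0.70, as a mean in place of a median it was 0.63, and after thinning it was 0.78. All counts on the 553 genes made up 1.73% of that library, against 0.94 to 1.31% in the other lymphoma libraries and 1.13 to 1.58% in non-lymphoma libraries. The high non-lymphoma value, 1.58% in replicate 3, included 1 very abundant gene starting at 62526571. Without that gene the share was 1.68% in lymphoma replicate 1 and 0.79 to 1.13% in the other 13 libraries. The total count of lymphoma replicate 1, 13142045, and its TMM factor, 1.15, lay within the range of the other libraries.

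Along the chromosome the level was followed in 5 Mb bins with at least 5 tested genes, of which there were 9, and 11 tested genes fell in 4 bins with fewer. The lymphoma mean was above the non-lymphoma mean in 7 of the 9 bins. The share of such bins on other chromosomes is not given. The median difference over 415 bins of other numbered chromosomes was also above 0, at 0.12. The differences were 0.46 at 0 to 5 Mb, 0.37 at 5 to 10 Mb, 0.29 at 15 to 20 Mb and 0.41 at 20 to 25 Mb. Beyond a middle stretch with lower values they were 0.37 at 40 to 45 Mb, 0.50 at 45 to 50 Mb and 0.49 at 60 to 65 Mb. In the middle, the bin at 25 to 30 Mb, which holds the MYC position, differed by -0.08 and the bin at 35 to 40 Mb by -0.24. These 2 bins hold all 7 lower calls, 3 and 4, and 2 of the 34 higher calls, both at 35 to 40 Mb. The lower calls were 3 of 12 tested genes at 25 to 30 Mb and 4 of 73 at 35 to 40 Mb. Over all tested genes 7.4% were called lower, so the share at 35 to 40 Mb was not above that background.

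Only the bin at 20 to 25 Mb had every lymphoma library above every non-lymphoma library. There the 7 lymphoma values ran from 0.235 to 0.83 and the non-lymphoma values from -0.65 to 0.228, so the groups were narrowly apart. How often the groups part in bins of other chromosomes is not given, and the result moved with bin size. In bins of 2.5 Mb, 4 lymphoma libraries lay above every control at 20 to 22.5 Mb, and 2 at 22.5 to 25 Mb. At 0 to 2.5 Mb all 7 did. At 0 to 5 Mb, 6 of 7 lymphoma libraries lay above all non-lymphoma libraries. Bins of other numbered chromosomes gave the background: among 415 such bins the quartiles of the differences were -0.09 and 0.31, and 7.23% were as high as the highest chromosome 13 bin, at 45 to 50 Mb. The bin at 15 to 20 Mb lay below the upper quartile of these other bins. At 25 to 30 Mb 74.0% of the other bins were at least as high, and at 35 to 40 Mb 89.4% were.

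Lymphoma replicate 1 was the highest of all 14 libraries in 6 of the 9 bins, with 1.05 at 0 to 5 Mb, 0.92 at 15 to 20 Mb, 0.83 at 20 to 25 Mb, 0.64 at 35 to 40 Mb, 0.99 at 45 to 50 Mb and 1.08 at 60 to 65 Mb. Its values at 5 to 10 Mb and 40 to 45 Mb were 0.68 and 0.45. At 25 to 30 Mb the value was -0.32 over 12 genes. In bins of 2.5 Mb this library was also negative at 5 to 7.5 Mb, with -0.87 over 5 genes, and at 62.5 to 65 Mb, with -0.71 over 7 genes, both inside 5 Mb bins with high medians. In 7 of the 9 bins this library exceeded 0.6, which 6.02% of the 415 bins of other chromosomes did in the same library. At 35 to 40 Mb it also parted from the rest of its group, with 0.64 against -0.86 to -0.04 in lymphoma replicates 2 to 7. Without it the group difference in that bin was -0.39, and the number of bins above 0 was still 7.

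**Figure D3:**
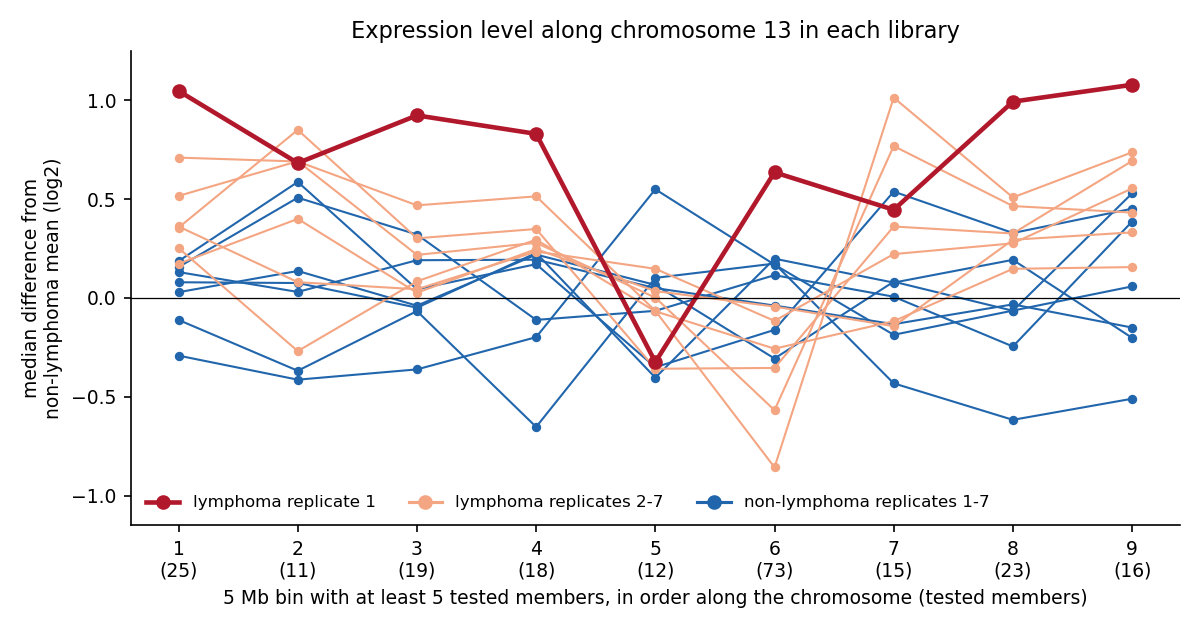
Median log2 difference from the non-lymphoma mean (y axis) in the 9 bins of 5 Mb with at least 5 tested genes, in order along chromosome 13 (x axis, number of tested genes in brackets), with 1 line per library. Lymphoma replicate 1 is highest in 6 bins and falls to -0.32 in the fifth, and the sixth bin, at 35 to 40 Mb, separates it from lymphoma replicates 2 to 7.

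The bin at 35 to 40 Mb is the gene-dense part of the chromosome: it holds 164 annotated genes and 73 of the 223 tested ones, where none of the other 8 bins holds more than 66 annotated genes. Fold changes on chromosome 13 were lower where more genes lay close by, with Spearman's rho of -0.28 between the log2 fold change and the number of annotated genes within 0.5 Mb over the 223 genes, which share the same 14 libraries. Among genes with under 10 neighbours 9 of 57 were called higher and 1 lower, and among those with 10 to 19 neighbours 24 of 94 were called higher and 2 lower. Of the 58 genes with 40 or more neighbours 1 was called higher and 3 lower, and of the 14 with 20 to 39 neighbours none was called higher and 1 lower. On the other numbered chromosomes the shares called higher in these classes were 14.8% with under 10 neighbours, 13.2% with 10 to 19, 6.12% with 20 to 39 and 2.2% with 40 or more, and the shares called lower were 3.61%, 3.75%, 9.84% and 14.1%. The chromosome 13 shares called higher were 15.8% with under 10 neighbours and 1.72% with 40 or more, near those values, and 25.5% with 10 to 19. With 20 to 39 neighbours the share was 0% of only 14 genes, against 6.12%. The chromosome 13 shares called lower were 1.75%, 2.13%, 7.14% and 5.17%, from few neighbours to many. All lay below the shares elsewhere, most of all with 40 or more neighbours. The median log2 fold changes of the 4 classes, from few neighbours to many, were 0.28, 0.37, -0.10 and -0.18. On the other numbered chromosomes they were 0.19, 0.13, -0.18 and -0.33, so gene-dense regions had lower values there too, and chromosome 13 was above the rest in each class. Without lymphoma replicate 1 the chromosome 13 medians were 0.19, 0.25, -0.25 and -0.43 against 0.19, 0.12, -0.20 and -0.37 elsewhere, so that chromosome 13 was then lower in both dense classes.

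Lymphoma replicate 1 did not follow that slope on chromosome 13. Its median difference was 0.79 for genes with under 10 neighbours, 0.78 with 10 to 19 and 0.80 with 40 or more, and 0.11 for the 14 genes with 20 to 39. Elsewhere in the genome the same library had 0.09 with under 10 neighbours, 0.10 with 10 to 19, -0.09 with 20 to 39 and -0.17 with 40 or more. Replicates 2 and 7, the lymphoma libraries with the lowest TMM factors, 0.67 and 0.68, showed the steepest slope, with -0.99 and -0.79 for chromosome 13 genes with 40 or more neighbours and -0.70 and -0.54 for such genes elsewhere. The part that library composition plays in the slope was not tested.

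**Figure D4:**
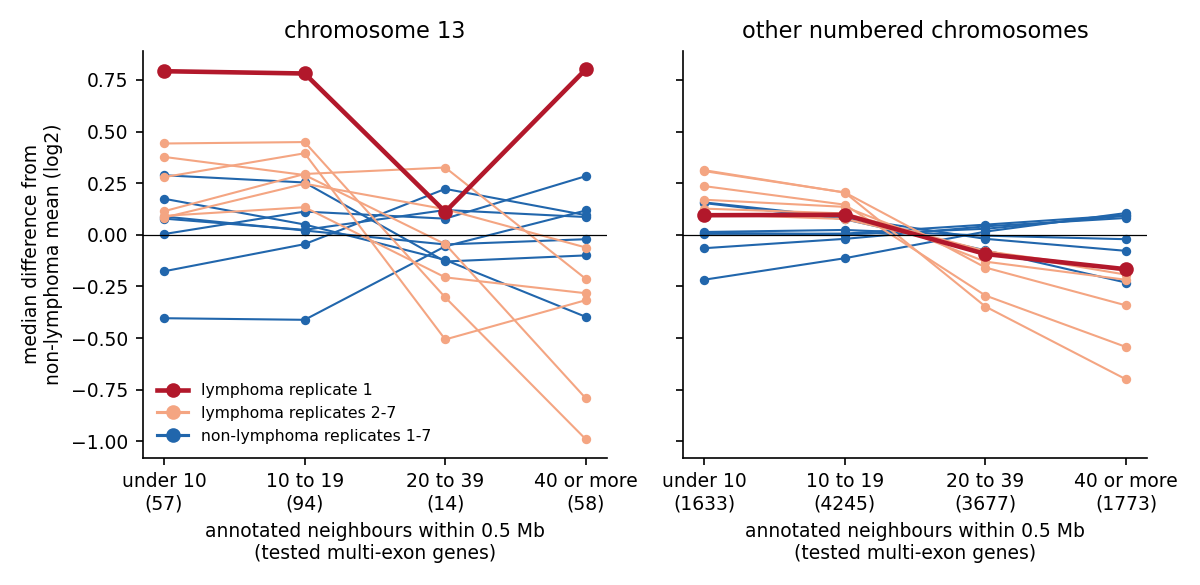
Median log2 difference from the non-lymphoma mean (y axis) of tested multi-exon genes by the number of annotated genes within 0.5 Mb (x axis, number of tested genes in brackets), on chromosome 13 and on the other numbered chromosomes, with 1 line per library. Lymphoma replicate 1 has 0.80 in the densest class of chromosome 13 and -0.17 in that class elsewhere.

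The window of 0.5 Mb to either side of the MYC position holds 11 of the 553 genes, of which 2 were tested. The gene at 25200577 to 25205309, on the plus strand with 3 exon intervals and 1938 exonic bases, is the tested gene nearest to the MYC position. A gene of 312 exonic bases starting at 25199926 also lies there, with 44 counts over all libraries, and was not tested. The 3-exon gene had 14.3 CPM at the lowest, 31.4 at the median and 51.8 at the highest in lymphoma libraries, and 25.5, 36.5 and 54.0 CPM in non-lymphoma libraries. No lymphoma library exceeded the highest control, 4 lay within the range of the controls, and replicates 2, 6 and 7 lay below every control. The log2 fold change was -0.16 (SE 0.27, edgeR adjusted p = 0.709), and its log2 CPM was 4.89 ± 0.71 against 5.15 ± 0.38 (SD, n = 7 each; two-sided exact permutation p = 0.409). No difference passed the test at the MYC position, and the fold change lay between -0.39 and -0.03 in every alternative run.

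The other tested gene of the window, a 9-exon gene on the plus strand at 25249066 to 25438884, shares exonic sequence with genes on the opposite strand. It had 2.58, 12.7 and 42.5 CPM at the lowest, median and highest in lymphoma and 2.03, 5.09 and 10.2 CPM in non-lymphoma libraries. Lymphoma replicate 1 was the highest and 3 more lymphoma libraries exceeded all controls. The log2 fold change of 1.39 (edgeR, with SE 0.49 and adjusted p = 0.0603) did not pass. It passed without lymphoma replicate 2 or non-lymphoma replicate 1, at an adjusted p down to 0.0339, and with DESeq2 (adjusted p = 0.0215), and was 0.84 without lymphoma replicate 1.

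Between 46 and 48 Mb, around the KIT position, lie 19 of the 553 genes, and 9 were tested. The tested gene nearest to 47 Mb, a 22-exon gene on the plus strand at 47108504 to 47190029, was barely expressed in blood. It had 0.0663, 0.91 and 2.10 CPM at the lowest, median and highest in lymphoma and 0.14, 1.52 and 2.2 CPM in non-lymphoma libraries, with 221 counts in all. The lowest value of all was that of lymphoma replicate 1, the library in which the chromosome as a whole was high. With so few counts the fold change of -0.57 (log2, SE 0.61, edgeR adjusted p = 0.53) has a wide error. A 25-exon gene at 46730703 to 46773278 had 32 counts in all and was not tested.

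Of the 9 tested genes 1 was called, an 11-exon gene on the minus strand at 46083910 to 46187005. It had 2.10 to 4.64 CPM in lymphoma and 1.12 to 1.97 CPM in non-lymphoma libraries, with no overlap between the groups. A log2 fold change of 0.82 was found (SE 0.27, edgeR adjusted p = 0.0469), and the call was lost when any library other than lymphoma replicate 6 or non-lymphoma replicate 3 was left out, at an adjusted p of up to 0.102 (without lymphoma replicate 1).

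The neighbouring 22-exon gene at 46011681 to 46083076 had 37.8 to 43.4 CPM in lymphoma replicates 2 to 7 and 112 CPM in replicate 1, against 23.2 to 43.1 CPM in controls. Its log2 fold change of 0.72 (edgeR, with SE 0.26 and adjusted p = 0.0616) did not pass. It passed at 0.0495 without non-lymphoma replicate 1 and at 0.0333 with DESeq2, and it was 0.40 without lymphoma replicate 1. A 20-exon gene at 47691709 to 47758784 showed a like pattern, with 35.3 CPM in lymphoma replicate 1, 6.29 to 13.1 CPM in the other lymphoma libraries and 3.65 to 8.53 CPM in controls. The log2 fold change of 0.99 did not pass (edgeR adjusted p = 0.0797; DESeq2 adjusted p = 0.0438) and was 0.45 without lymphoma replicate 1. The remaining 5 tested genes of the window, starting at 46560009, 47442764, 47627913, 47658330 and 47983126, had log2 fold changes from -0.64 to 0.64 with adjusted p-values of 0.13 or more.

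**Figure D5:**
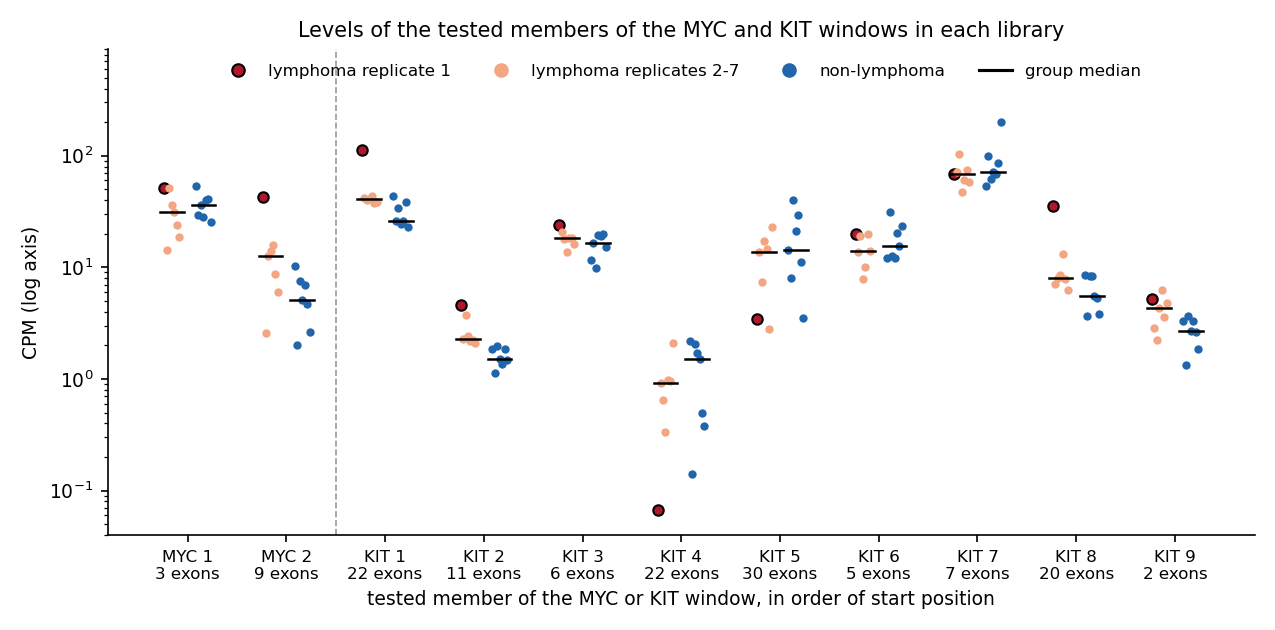
CPM on a log axis (y axis) of the 2 tested genes of the MYC window and the 9 of the KIT window in order of start position (x axis), with 1 point per library and bars at group medians. Lymphoma replicate 1 is highest in the second MYC window gene and in 4 of the KIT window genes, and lowest, at 0.0663 CPM, in the fourth KIT window gene, which is nearest to 47 Mb.

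The 8 genes with the largest rise all lay outside the middle stretch, with log2 fold changes from 1.43 to 2.77. ENSCAFG00000001056, a 12-exon gene at 22993862 to 23017978, rose most. It had 6.16, 10.2 and 118 CPM at the lowest, median and highest in lymphoma and 1.68, 4.71 and 6.59 CPM in non-lymphoma libraries. Here 6 of 7 lymphoma libraries were above every control, with replicate 1 at 118 CPM and replicate 5 next at 31.5 CPM. The log2 fold change was 2.77 (SE 0.64, edgeR adjusted p = 0.011) and 1.66 without lymphoma replicate 1 (edgeR adjusted p = 0.0162). A 15-exon gene at 21679326 to 22017988, which shares exonic sequence with another gene, lay in the same bin. It rose by 1.43 on the log2 scale (SE 0.32; adjusted p = 0.00991 by edgeR).

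At 48435691 to 48682002, 3 consecutive tested genes rose together, with log2 fold changes of 1.23, 1.44 and 1.32, and all 3 remained called without lymphoma replicate 1. The middle one, ENSCAFG00000002209, a 16-exon gene at 48572220 to 48611775, had 14.6, 20.8 and 45.4 CPM at the lowest, median and highest in lymphoma and 5.22, 9.76 and 12.7 CPM in controls. Every lymphoma library lay above every control. The gene rose by a log2 fold change of 1.44 overall (SE 0.27, edgeR adjusted p = 0.00456), the lowest adjusted p on the chromosome, and the call held with any 1 library left out.

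Runs of consecutive called genes were not counted on the other chromosomes, so none has a background here. Another run of 3 consecutive genes rose at 60145366 to 60666728. The first 2, with 6 and 7 exons and starting at 60145366 and 60205937, had 40.5 to 244 and 38.2 to 231 CPM in lymphoma against 5.28 to 46.3 and 6.80 to 52.6 CPM in controls. Both were highest in lymphoma replicates 2 and 7, not in replicate 1, and lowest in non-lymphoma replicate 7. On the log2 scale the rises were 1.68 (SE 0.45, edgeR adjusted p = 0.0204) and 1.65 (SE 0.45, edgeR adjusted p = 0.0218), the second lost without lymphoma replicate 2 (adjusted p = 0.0526). The third, a 28-exon gene at 60328136 to 60666728, had 1.34 to 24.0 CPM in lymphoma against 1.09 to 3.33 CPM in controls, with replicate 1 highest and a rise of 2.13 on the log2 scale (edgeR, with SE 0.49 and adjusted p = 0.0105).

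The other 2 large rises were weaker without lymphoma replicate 1. An 11-exon gene at 428752 to 493817 had 27.8 CPM in that library, 2.43 to 13.1 CPM in the other lymphoma libraries and 0.49 to 5.50 CPM in controls. The log2 rise came to 1.91 (SE 0.55, edgeR adjusted p = 0.0292), and to 1.40 without lymphoma replicate 1 (adjusted p = 0.0709). That call was also lost without lymphoma replicate 5 or non-lymphoma replicate 5, 6 or 7. A 6-exon gene at 4733017 to 4772115 had 76.4 CPM in lymphoma replicate 1, 8.99 to 26.5 CPM in the others and 4.41 to 14.1 CPM in controls. Here the log2 rise was 1.48 (SE 0.43, edgeR adjusted p = 0.0279) and 0.88 without lymphoma replicate 1 (adjusted p = 0.0582), and the call was also lost without non-lymphoma replicate 5 or 7. It lies in a further run of 3 consecutive higher genes, at 4648759 to 4860247, of which the other 2 share exonic sequence with another gene and only 1 remained called without lymphoma replicate 1.

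Groups did not overlap in 5 of the 223 genes, or 2.24%, all with lymphoma higher, against 2.03% of all tested genes in that direction. No tested gene had every lymphoma library below every control, against 1.75% of all tested genes. Besides the genes starting at 46083910 and 48572220 these were genes starting at 4361340, 4834958 and 58013212, named after their values were seen. Their log2 fold changes were 0.69, 0.87 and 0.70. The 59-exon gene at 58013212 to 58231200 shares exonic sequence with another gene, as does the gene at 4834958. It had at least 185 CPM in lymphoma and at most 174 CPM in controls, and the 14-exon gene at 4361340 to 4396040 had 141 to 261 against 88.5 to 139 CPM. Calls of these 3 held with any 1 library left out.

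All 7 lower calls lay in 2 stretches. At 29218733 to 29746382, 3 genes fell, by 0.51, 0.73 and 0.94 on the log2 scale. The last, ENSCAFG00000001141, a 19-exon gene at 29650444 to 29746382, had 20.6, 35.0 and 53.6 CPM at the lowest, median and highest in lymphoma and 44.8, 65.4 and 86.4 CPM in controls. All but 1 lymphoma library were below every control (log2 fold change -0.94, SE 0.22, edgeR adjusted p = 0.011). Calls of the other 2 were weaker. The gene starting at 29218733 (edgeR adjusted p = 0.0354) lost its call without lymphoma replicate 2, 3, 4 or 5, or without non-lymphoma replicate 1, 2, 5 or 6 (adjusted p up to 0.0892). The one starting at 29504867 (edgeR adjusted p = 0.0367) lost it without lymphoma replicate 1, 2, 4 or 5, or without non-lymphoma replicate 5, 6 or 7 (adjusted p up to 0.0774).

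Between 36443124 and 37882974, 4 of the 73 tested genes of the dense stretch fell, where 7.4% of all tested genes were called lower. ENSCAFG00000001433, a 38-exon gene at 37450248 to 37513523 with 16986 exonic bases, shares exonic sequence with another gene. It had 105, 299 and 422 CPM at the lowest, median and highest in lymphoma and 367, 595 and 868 CPM in controls. Of the 7 lymphoma libraries 5 were below every control, replicate 1 with 223 CPM among them (log2 fold change -1.13, SE 0.31, edgeR adjusted p = 0.0223). A 39-exon gene at 37645876 to 37698342 ranged from 149 to 353 CPM in controls and from 93.3 to 186 CPM in lymphoma, and fell by 0.81 on the log2 scale (edgeR, with SE 0.24 and adjusted p = 0.0309). An 18-exon gene at 37875998 to 37882974, also overlapping another, fell by 0.96 (SE 0.25, edgeR adjusted p = 0.0176), with 6 of 7 lymphoma libraries below every control. A 19-exon gene at 36443124 to 36588387 fell by 1.33 (SE 0.41, edgeR adjusted p = 0.0389) at a low level, 0.15 to 4.2 against 2.65 to 6.33 CPM. The call at 37645876 was lost without lymphoma replicate 2, 4, 5 or 7, or without non-lymphoma replicate 2, 5 or 7 (adjusted p up to 0.0654). That at 36443124 was lost without lymphoma replicate 1, 4, 5 or 6, or without non-lymphoma replicate 1, 2, 5, 6 or 7 (adjusted p up to 0.0709).

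Per kilobase of exonic sequence, the 6 most abundant tested genes of the chromosome had mean levels from 141 to 1479 CPM per kb, and none was called. The first was a 3-exon gene at 62526571 to 62528527, which had 380, 1576 and 3015 CPM at the lowest, median and highest in lymphoma and 210, 1179 and 6584 CPM in controls. Its spread within each group was wide, with lymphoma replicate 1 lowest in its group and non-lymphoma replicate 3 highest of all (log2 fold change -0.23, SE 0.58, adjusted p = 0.806 by edgeR; 0.43 when non-lymphoma replicate 3 was left out). A 6-exon gene at 38102010 to 38104770, in the dense stretch, came next with 600 CPM per kb. It had 1390 CPM in lymphoma replicate 1, 236 to 452 CPM in the other lymphoma libraries and 266 to 704 CPM in controls, so that its log2 fold change of 0.04 (edgeR, with SE 0.36 and adjusted p = 0.946) turned to -0.44 without that library. The 5-exon gene at 301286 to 304780, with 315 CPM per kb, was also highest in lymphoma replicate 1, at 332 CPM against 111 to 156 CPM in the other lymphoma libraries and 78.8 to 208 CPM in controls (log2 fold change 0.25, edgeR adjusted p = 0.535; -0.04 without that library). The other 3, starting at 2564065, 2729271 and 59962994, had log2 fold changes of 0.38, -0.30 and -0.44 with adjusted p-values of 0.204 or more.

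Of the other features of the genes, the genomic span went with the fold change nearly as closely as the number of neighbours did (rho -0.28). The rest went with it more weakly. Over the 223 genes, Spearman's rho with the log2 fold change was 0.26 for the genomic span, 0.17 for the number of exon intervals, 0.09 for the average level and 0.04 for the exonic length. Neighbouring tested genes had like values to some degree, with a Pearson correlation of 0.28 over 222 neighbouring pairs, which ranked 6 among 38 numbered chromosomes. At the edge of the rule, the 12 tested genes with 2 exon intervals had a median log2 fold change of -0.00 with none called, and the 18 tested genes with 1 interval, which were left out, had -0.14 with 1 called in each direction.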

How the data were processed

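Raw read-pair counts per gene were deposited as 1 table, made by the authors with featureCounts 2.0.1 on exons summed by gene, with no strand option and Ensembl release 103 of CanFam3.1, per the file headers. HISAT2 2.2.1, Subread 2.0.1 and DESeq2 are named in the submitters' processing notes. None of the identifiers matched the reference gene table of UU_Cfam_GSD_1.0, so no marker or pathway list could be used and no sequence is shown.

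All genes kept by filterByExpr (12836) were fitted with edgeR 4.0.16 in R 4.3.3 (quasi-likelihood F test, TMM factors, group as the only term), with Benjamini-Hochberg adjustment over all of them at 0.05. Log2 CPM used a prior count of 2, and standard errors were taken from the fold change and its F statistic (size of the log2 value over the root of F). Single values used exact permutation over all 3432 assignments. The procedure was also run on simulated counts with the same dispersion for every gene, a simpler setting than these data. Its outcome is not given here. Levels, bins and classes are descriptions with no test. Tables were made in Python 3.11.15 (pandas 2.3.3; scipy 1.17.1).

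The chromosome and the lists were chosen with earlier results of these data known, and classes by neighbouring genes after seeing the data. Named genes were those tested within 0.5 Mb of the MYC position or between 46 and 48 Mb, the 8 largest rises and falls among called genes that averaged a log2 CPM of 1 or more and in which 6 or 7 lymphoma libraries lay beyond the median control in the direction of the change (7 falls qualified), and the 6 most abundant per kb. The 5-digit sample numbers were treated as a possible batch. All non-lymphoma libraries carry them, but of the lymphoma libraries only replicates 5 and 6 do. In the comparison of all libraries such a batch and disease therefore largely cannot be told apart. Alternatives covered normalization, filters, DESeq2 1.42.0, limma 3.58.1, thinning, thresholds, bin sizes, a replicate block and subsets of libraries.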

Additional observations from a re-analysis of the deposited data

Results flagged for a closer look

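A library stood far from its group in 9 of 86 sets of 7 values. About 1 set in 20 would do so by chance if the sets were independent and not chosen by their values, which comes to 4.3 sets. Many sets here are genes named for their values in these data, and all share the same libraries. The 9 sets therefore cannot be weighed against the 4.3. Each value in brackets is the distance to the closest other library as a share of the whole range. Lymphoma replicate 1 stood above its group in the level of chromosome 13 (0.718), in the bin at 45 to 50 Mb (0.573) and in 4 genes, starting at 301286 (0.692), 38102010 (0.633), 46011681 (0.875) and 47691709 (0.579). Non-lymphoma replicate 7 stood below its group in the neighbouring genes starting at 60145366 (0.738) and 60205937 (0.68). Non-lymphoma replicate 3 had the highest share of counts on the chromosome (0.762), with a share of 1.58%, and 0.94% without the gene starting at 62526571.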

How the results depend on the processing

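The level of lymphoma replicate 1 ranged from 0.63 to 0.79 over 8 alternatives and from 0.72 to 0.78 with 1 other library left out, and the share of bins with lymphoma higher from 77.8 to 85.7%. That share is not given for the other chromosomes, where the median difference over 415 bins of 5 Mb was 0.12. The 3 other scalings called 29 to 38 genes higher and 7 to 10 lower. With 1 library left out, 22 to 42 genes were called higher and 3 to 12 lower, 0 or 1 of the KIT window, and the gene starting at 38102010 had log2 fold changes from -0.44 to 0.17, that at 301286 from -0.036 to 0.39 and that at 62526571 from -0.43 to 0.43. DESeq2 called 49 higher and 13 lower, and 3 of the KIT window. The share of all tested genes called is given only for the main run, the run without lymphoma replicate 1 and the 5-digit libraries. Counts from the other runs and thresholds thus have no background here. An adjusted p under 0.01 left 5 higher and 0 lower genes by edgeR (34 and 7 at 0.05, 53 and 16 at 0.1). The KIT window call was lost (0) with upper-quartile factors, without a filter, with limma-voom, in the 5-digit libraries and with the replicate block. A stricter filter also left 0 calls in the window, but the gene starting at 46083910 was then not tested. The block of shared replicate numbers left 17 higher and 2 lower calls, and with it the gene starting at 25249066 passed (adjusted p = 0.0263 by edgeR); the numbers pair no animals, correlations of same-numbered deviations ran from -0.34 to 0.35, and 1 of 7 lymphoma libraries correlated best with its own number. The median log2 fold change turned to -0.35 without a filter, where 534 genes were fitted and that of all genes was -0.45, and to -0.0075 in the 5-digit libraries, where 0 genes were called in either direction. Genes not called also reversed: that starting at 38102010 with upper-quartile factors (-0.0076), no filter (-0.032), limma-voom (-0.14), 5-digit libraries (-0.30) and the replicate block (-0.12); that at 62526571 with limma-voom (0.20), 5-digit libraries (0.041) and the block (0.13); and that at 2564065 in the 5-digit libraries (-0.026). The causes were not tested. Depth limits the report to the 223 tested genes of 553.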
